A study of Homo sapiens with 6 samples.

Results

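The 9 genes described here encode ZNF148 and 8 other zinc finger proteins that bind GC-rich DNA: ZNF281, VEZF1, MAZ, PATZ1, SP1, SP2, SP3 and SP4. They were chosen by name and not by a cut on their values, though earlier results of these data were known. Every row of the expression table whose gene symbol matched was taken. The 9 genes held 12 of the 24108 rows, because ZNF281, MAZ and PATZ1 each had a second row under the same symbol. The question was whether the level of any other GC-box factor changed in cells with less ZNF148 transcript.

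The 6 samples were of MDA-MB-231, an established basal, triple-negative breast cancer cell line. All were transduced for 48 h with a lentivirus that carried a short hairpin RNA, and were then selected for 24 h in 0.5 µg/ml puromycin. In 3 samples the hairpin targeted luciferase, a gene that human cells lack (shCtr), and in the other 3 it targeted ZNF148 (shZNF148). The design rests on 1 hairpin against ZNF148 and 1 control hairpin in a selected, early passage pool. The labels do not say whether the replicates were cultured separately, so the p-values measure only the spread between these samples, which may be technical. RNA came from whole cultures, so less transcript per cell and fewer cells with the transcript cannot be told apart.

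A GC box is a short G-rich stretch, with GGGCGG at its core, that is common in promoters without a TATA box. SP1, SP3 and SP4 bind it through a triplet of C2H2 zinc fingers near the C-terminus, which SP2 has as well, though SP2 prefers other sites. SP1 is a general activator while SP3 can activate or repress. ZNF148 (also named ZBP-89) and its closest relative ZNF281 (ZBP-99) share a zinc finger region and bind similar G-rich or C-rich sites, where ZNF148 can compete with SP1. VEZF1, MAZ and PATZ1 also recognize runs of G, and MAZ is known from the MYC promoter.

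The hairpin is shown first, since its match to a transcript bears on how each of the 9 genes can be read. The first line gives the target sequence with its neighbors in the ZNF148 transcript, with the target in capitals, and the second gives the strand complementary to the target, with the seed (bases 2 to 8) in capitals. A seed pairs with the word TAAATGA in a transcript.
ZNF148 target site: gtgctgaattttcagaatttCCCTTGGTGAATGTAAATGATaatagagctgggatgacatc
ZNF148 guide strand: aTCATTTAcattcaccaaggg

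The target lies in the coding sequence in exon 9 of 9 of the canonical ZNF148 transcript (GENCODE 44), at chr3:125232398-125232418 on the minus strand of GRCh38. Of 20046 canonical transcripts searched, 1 held all 21 bases, that of ZNF148, and the closest site in any other transcript had 3 mismatches. The best site in each of the other 8 genes was then aligned to see which of them came nearest. SP1 came nearest with 5 mismatches, and ZNF281, the closest relative of ZNF148, had 7. Both sites are in the 3' UTR and are shown with mismatched bases in capitals.
SP1 best site: GccttgAtAaatAtaTatgat
ZNF281 best site: cTcAAgTtgaaATtaTatgat

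The SP1 site is at chr12:53411594-53411614 on the plus strand and matched 16 of the 21 bases. Among all transcripts, 0.738% had a site with that few mismatches or fewer. The ZNF281 site, at chr1:200406148-200406168 on the minus strand, matched 14 bases, and 26.2% of transcripts had a site at least as close. The best sites in the remaining 6 genes had 8 to 10 mismatches. The seed word itself occurred in the 3' UTR of ZNF148, VEZF1 and SP2 (1 site each) and of SP3 (2 sites), which is 4 of the 9 genes. It occurred in the 3' UTR of 20.4% of 19550 transcripts. These are matches of letters, and whether the hairpin acts on any transcript besides ZNF148 was not tested.

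Levels are given in FPKM, the sequenced fragments of a gene divided by its transcript length in kilobases and by library size, a scale on which genes of different length can be compared. How many reads lie behind a value is unknown. Relative to shCtr replicate 1, the depth read from the steps between low values ranged from 0.806 (shZNF148 replicate 3) to 1.13 (shZNF148 replicate 1). The labelled line was checked against its markers. All 7 MDA-MB-231 markers, among them VIM, CD44 and KRT18, were expressed, with summed levels of 3353 to 3546 FPKM in shCtr and 3017 to 3071 FPKM in shZNF148. Of these 7, CD44 and KRT18 passed as lower in shZNF148 (limma, adjusted p = 0.0185 and 0.0285), as 8.13% of all tested rows did, and 0 passed as higher. At an unadjusted p under 0.05, 4 were lower and 1 was higher (ANXA1, at 122% of control), beside 33.8% of all tested rows in either direction. KRT8 was at 110%. Of 10 luminal and leukocyte markers, ESR1 was listed at 0 in every sample and PGR, FOXA1, CDH1, PTPRC and CD3E stayed under 0.5 FPKM. GATA3 and EPCAM were present at a mean of 8.22 and 10.6 FPKM in shCtr, and the row of ERBB2, which it shares with a microRNA, read 20.1 to 24.8 FPKM in replicates 1 and 3 of both groups and 126 and 125 FPKM in the samples numbered 2. CD14 ran from 0.470 to 2.01 FPKM. The summed level of these 10 markers ranged from 38.7 to 147 FPKM in shCtr and from 39.3 to 147 FPKM in shZNF148. The part of these markers in the results was not tested.

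The 9 genes lie on 8 chromosomes of GRCh38 (GENCODE 44): ZNF148 at chr3:125225669-125375325, ZNF281 at chr1:200404940-200410056, VEZF1 at chr17:57971547-57988259, PATZ1 at chr22:31325804-31346346 and SP3 at chr2:173880850-173965373 on the minus strand, and MAZ at chr16:29806106-29811164, SP1 at chr12:53380176-53416446, SP2 at chr17:47896150-47928957 and SP4 at chr7:21428043-21514822 on the plus strand. In control cells they covered a wide range of levels. MAZ led with a mean of 64.8 ± 3.43 FPKM (SD, n = 3), which placed it at the 88.1 percentile of the tested rows. VEZF1, SP1 and SP3 followed at 19.7, 17.7 and 17.6 FPKM, and the samples of neighbors in that order overlapped. SP2 (12.4 FPKM) and ZNF281 (8.94 FPKM) came next, each apart from its neighbors. PATZ1 and ZNF148 both had a mean of 4.13 FPKM and overlapped, and SP4 was last at 1.12 FPKM. ZNF148 was therefore among the less abundant transcripts of the group, at the 21.1 percentile, and supplied 2.74% ± 0.211 (SD, n = 3) of the summed level of all 9 genes in shCtr.

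**Figure D1:**
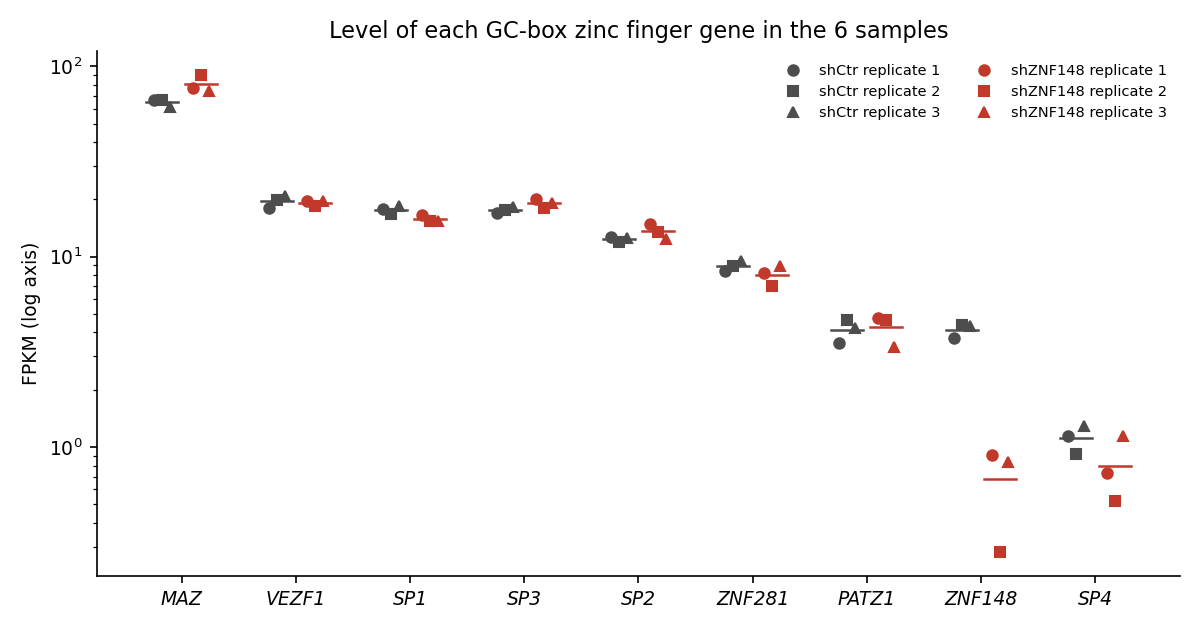
FPKM of the 9 genes in each sample on a log axis, in the order of the shCtr means, with shCtr in gray and shZNF148 in red. Symbols mark replicate numbers and short lines mark group means. The groups are farthest apart for ZNF148, which moved from position 8 to position 9.

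Knockdown left less ZNF148 transcript in every sample. Its level was 3.72, 4.36 and 4.30 FPKM in shCtr and 0.914, 0.282 and 0.834 FPKM in shZNF148, so the groups did not overlap and shZNF148 replicate 2 was the lowest. The mean fell to 16.4% of control, and limma gave a log2 fold change of -1.63 (95% interval -2.06 to -1.21, adjusted p = 0.0099). The exact permutation p (two-sided) was 0.1, and a design of 3 against 3 cannot go lower. Of the tested rows, 1% changed by more. The adjusted p was 0.0673 without shCtr replicate 1 and 0.0653 without shCtr replicate 3, with log2 fold changes of -1.69 and -1.61. In both of those fits the calls over the whole table also dropped, from 216 higher and 431 lower to 3 higher and 26 lower without shCtr replicate 1, and to 3 higher and 19 lower without shCtr replicate 3.

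No other gene of the 9 was called. The call asked for an adjusted p under 0.05 together with a change past 1.5-fold, and it took in 5.49% of the 11777 tested rows, 1.83% as higher and 3.66% as lower. Of the 9 genes, 8 passed the filter of a mean of at least 1 FPKM, of which 1 was called lower (ZNF148) and 0 were called higher by limma. At an unadjusted p under 0.05, 1 was higher (MAZ) and 1 was lower (ZNF148), beside 33.8% of all tested rows. Groups did not overlap for 3 of the 8 (37.5%), namely ZNF148, MAZ and SP1, and for 41% of all tested rows, 20% with shZNF148 higher and 21% with it lower. For each of the 7 tested genes other than ZNF148, the 95% interval of the change in FPKM + 1 of its most abundant row lay inside 1.5-fold in either direction. The upper limit for MAZ passed 1.5-fold in 4 of its 16 alternatives, those without shCtr replicate 1, shCtr replicate 2, shZNF148 replicate 1 or shZNF148 replicate 3, and reached 0.60 on the log2 scale.

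**Figure D2:**
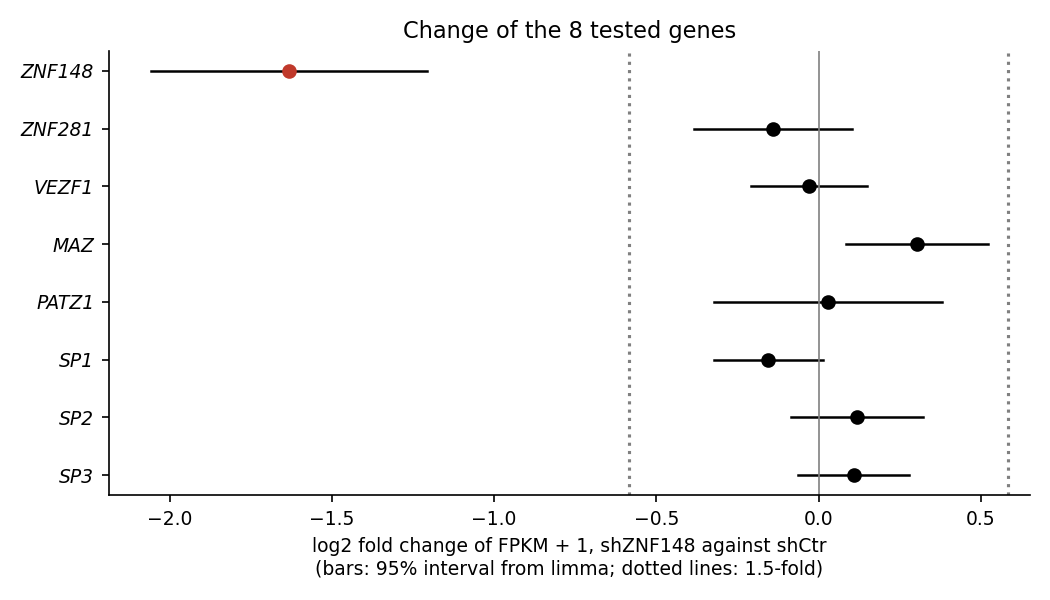
Log2 fold change of FPKM + 1 in shZNF148 against shCtr for the 8 tested genes, with 95% intervals from limma as bars and 1.5-fold as dotted lines. The ZNF148 interval, in red for an adjusted p under 0.05, runs from -2.06 to -1.21 and lies outside the lines, and the other 7 intervals lie inside them.

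ZNF281 is the gene most like ZNF148 in its zinc fingers and is known as a repressor of GC-rich promoters and a factor of embryonic stem cells and of epithelial-mesenchymal transition. Its level was 8.46, 8.91 and 9.45 FPKM in shCtr and 8.22, 6.99 and 8.93 FPKM in shZNF148. The groups overlapped, with shZNF148 replicate 2 lowest. The log2 fold change was -0.14 (95% interval -0.38 to 0.10, adjusted p = 0.376 from limma). For this row the interval ran from 0.766-fold to 1.08-fold on the scale of FPKM + 1. A second ZNF281 row varied more between replicates than between groups, from 0.493 to 3.49 FPKM in shCtr and from 0.000427 to 3.08 FPKM in shZNF148. The limma interval of that second row was wide, from 0.350-fold to 2.60-fold. With both rows summed, ZNF281 reached 91.6% of control, with a log2 fold change of -0.11 (95% interval -0.38 to 0.16 from limma).

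The share of ZNF148 in its pair with ZNF281 was lower in shZNF148. It made up 30.6%, 32.9% and 31.3% of the summed level of the pair in shCtr and 10.0%, 3.87% and 8.54% in shZNF148. The groups did not overlap. ZNF148 is in both terms of the share, and ZNF281 itself did not pass the test. ZNF281 was already the more abundant of the pair in control cells.

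VEZF1, first described in vascular endothelium, and MAZ, the MYC-associated zinc finger protein, bind runs of G. VEZF1 was measured at 18.1, 19.9 and 20.9 FPKM in shCtr and at 19.6, 18.5 and 19.6 FPKM in shZNF148. The shZNF148 samples fell within the range of shCtr. Its log2 fold change was -0.028 (95% interval -0.21 to 0.15, adjusted p = 0.818 from limma), or between 0.866-fold and 1.11-fold.

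MAZ stood at 66.5, 67.0 and 60.8 FPKM in shCtr and at 76.8, 90.6 and 74.0 FPKM in shZNF148. Every shZNF148 sample was above every shCtr sample, and replicate 2 was the highest. The mean was 124% of control, with a log2 fold change of 0.30 (95% interval 0.09 to 0.52, or 1.06-fold to 1.44-fold). The adjusted p from limma was 0.0693, so MAZ did not pass, and 28.7% of the tested rows changed by more. MAZ crossed the threshold of the adjusted p in 3 of 16 alternatives: quantile normalization (log2 fold change 0.36, adjusted p = 0.0384), weighting of the samples (0.27, adjusted p = 0.0220) and summing its 2 rows (0.31, adjusted p = 0.0484). Over all 16 alternatives its change was never below 0.22 or above 0.36 on the log2 scale, and the highest adjusted p was 0.202. The second MAZ row ran from 5.94 to 15.9 FPKM in shCtr and from 11.1 to 15.1 FPKM in shZNF148, and these ranges overlapped.

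PATZ1, a zinc finger protein with a BTB domain, was given at 3.54, 4.63 and 4.22 FPKM in shCtr and at 4.77, 4.65 and 3.35 FPKM in shZNF148. Here the shZNF148 samples included both the highest and the lowest value. The log2 fold change was 0.029 (95% interval -0.32 to 0.38, adjusted p = 0.906 from limma), and its interval, from 0.801-fold to 1.30-fold, was the widest among the 7 genes. PATZ1 also had a second row, at 2.55, 3.05 and 1.56 FPKM in shCtr and at 2.69, 3.999 and 5.44 FPKM in shZNF148. Its mean was 2.39 FPKM in shCtr, against 4.13 FPKM for the first row, and 4.04 against 4.26 FPKM in shZNF148. The second row had a log2 fold change of 0.56 with an adjusted p of 0.167 from limma, and its groups overlapped. With the rows summed, PATZ1 was at 127% of control with an adjusted p of 0.120, and its interval (0.03 to 0.60) then reached past 1.5-fold. Of the 3 genes with a second row, PATZ1 differed most between one row and the sum.

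None of the SP genes passed the test. SP1, the founding GC-box activator, was at 17.8, 16.8 and 18.6 FPKM in shCtr and at 16.5, 15.4 and 15.4 FPKM in shZNF148. Each shZNF148 sample was below each shCtr sample, by a small margin between 16.5 and 16.8 FPKM. The mean was 89.2% of control, with a log2 fold change of -0.16 (95% interval -0.32 to 0.01, adjusted p = 0.174 from limma), and 56.6% of the tested rows changed by more. Among the 8 genes other than ZNF148, SP1 is also the one with the closest partial match to the hairpin, printed above. Its transcript held 0 copies of the seed word. The part of the partial match in the SP1 difference was not tested.

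SP3 competes with SP1 for GC boxes. It was at 16.9, 17.6 and 18.3 FPKM in shCtr and at 20.2, 18.0 and 19.1 FPKM in shZNF148, and the groups overlapped. The log2 fold change was 0.11 (95% interval -0.06 to 0.28, adjusted p = 0.328 from limma). SP2, which prefers sites other than the classical GC box, was at 12.7, 12.0 and 12.5 FPKM in shCtr and at 14.9, 13.5 and 12.3 FPKM in shZNF148. Its groups overlapped as well, with a log2 fold change of 0.12 (95% interval -0.08 to 0.32, adjusted p = 0.363 from limma).

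SP4, best known from neurons, was the least abundant of the genes in control cells. It was at 1.142, 0.919 and 1.29 FPKM in shCtr and at 0.727, 0.520 and 1.144 FPKM in shZNF148, and the groups overlapped. Its mean over the 6 samples was below 1 FPKM, so it was not part of the limma fit. The log2 difference was -0.25 (exact two-sided permutation p = 0.3). In a fit without the filter the adjusted p was 0.329, with an interval from -0.60 to 0.10 that reached past 1.5-fold.

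The summed level of the 4 SP genes was 48.8 ± 1.73 FPKM (SD, n = 3) in shCtr and 49.2 ± 2.71 FPKM in shZNF148, a difference smaller than either SD. Within that sum, SP3 took a larger part relative to SP1. The ratio of SP3 to SP1 was 0.954, 1.05 and 0.984 in shCtr and 1.22, 1.16 and 1.24 in shZNF148, and these groups did not overlap. The ratio was chosen after its values were seen and is given without a test, and neither gene passed the test alone.

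**Figure D3:**
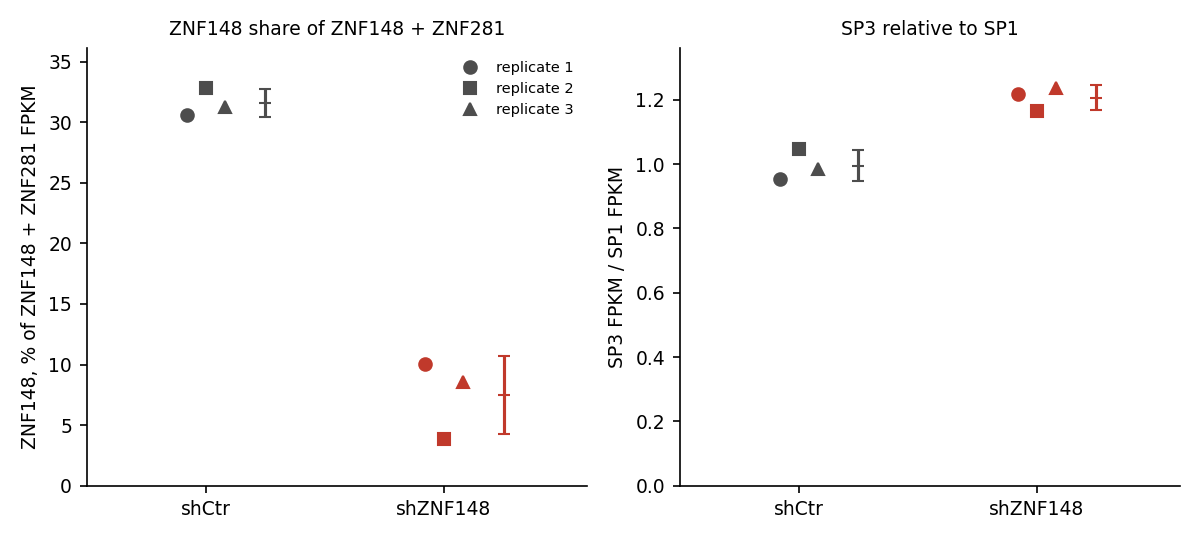
Left, ZNF148 as a percentage of the summed FPKM of ZNF148 and ZNF281 in each sample; right, FPKM of SP3 divided by that of SP1. Symbols mark replicates, and the mean with its SD is drawn beside them. The groups are apart in both panels, at 31.6% against 7.47% on the left and 0.995 against 1.21 on the right.

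The summed level of the 8 genes other than ZNF148 was 145.2, 147.7 and 146.1 FPKM in shCtr and 161.8, 168.1 and 153.8 FPKM in shZNF148. The groups did not overlap and the means differed by 14.9 FPKM. MAZ carried this difference. Without MAZ the sum was 81.5 ± 3.38 FPKM (SD, n = 3) in shCtr and 80.8 ± 3.77 FPKM in shZNF148, and the groups overlapped. The share of MAZ in the 9 genes was 43.1% ± 2.28 (SD, n = 3) in shCtr and 49.6% ± 3.62 in shZNF148. No test was run on these sums.

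**Figure D4:**
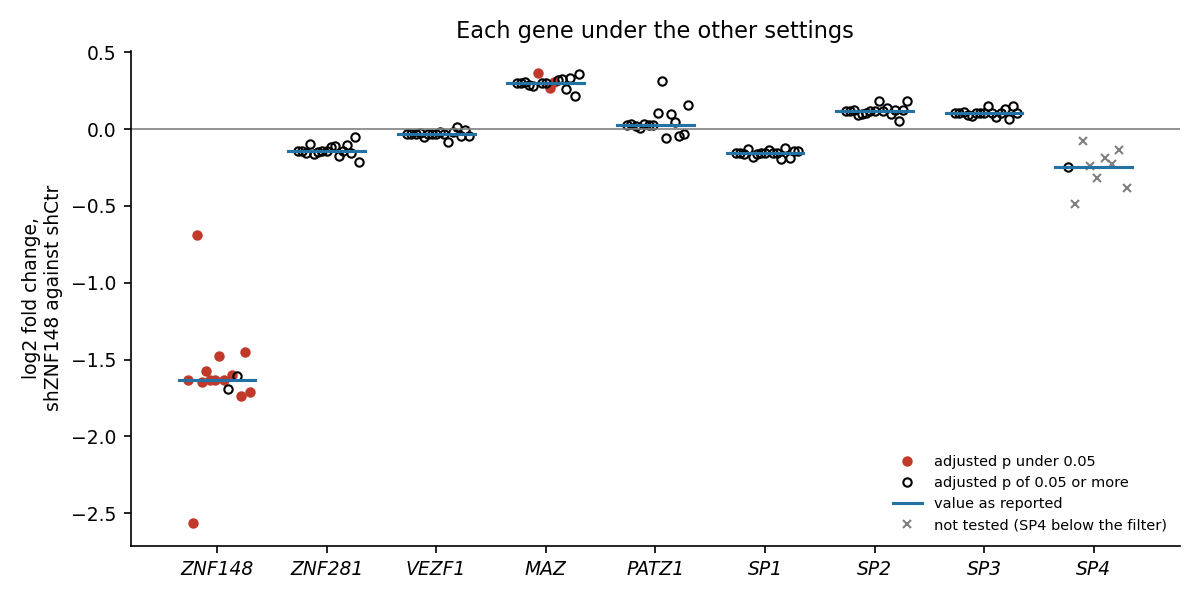
Log2 fold change of each gene as reported (blue line) and under the other settings of filter, pseudocount, scaling, block, variance model and samples (points). Filled red points had an adjusted p under 0.05, open points did not, and gray crosses mark SP4, which was below the filter. ZNF148 is below 0 throughout, MAZ is the only other gene with red points, and PATZ1 and VEZF1 lie on both sides of 0.

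Across the 6 samples the level of SP1 went with that of ZNF148 (Pearson r = 0.850 on log2 values) and that of MAZ went against it (r = -0.925). These 6 points share the split into groups, so r describes the same difference as the group means and is given without a p. Among the 8832 rows that averaged at least 5 FPKM, those most like ZNF148 over the 6 samples were DNAJB12, a cochaperone of the endoplasmic reticulum (r = 0.9991), TMEM9 (0.9984), IL1A, the cytokine interleukin 1 alpha (0.9971), the translation factor gene EIF4B (0.9966) and CLSTN1 (0.9963). ZNF148 itself was left out, and PATZ1 and SP4 averaged under 5 FPKM, so these genes could not enter the ranking. None of the rest of the 9 genes was among the rows named.

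Promoters of 8 of the 9 genes, all but PATZ1, had an entry in RefSeq (GRCh38.p14), with 12 start sites in all. The 250 bases before each start were searched on both strands for the core GGGCGG. It was found in 42.6% of 35116 windows of that length and in 10 of the 12 windows of these genes. The windows of both RefSeq start sites of ZNF148 lacked it, while that of MAZ had 5 copies and those of SP1 had 4 and 8, some of them overlapping. Both ZNF148 windows (chr3:125374710-125374959 and chr3:125357281-125357530) and the MAZ window (chr16:29806279-29806528) lie inside the GENCODE span of their gene given above. For these 2 genes, the bases before the outermost GENCODE start were therefore not searched. The windows below are printed for the genes whose levels are compared with ZNF148 and with each other above, with each GC-box core or its reverse complement in capitals. They are ZNF281 (chr1:200410037-200410286, minus strand), SP1 at its first start (chr12:53379926-53380175, plus strand) and SP3 at its first start (chr2:173965374-173965623, minus strand).
ZNF281: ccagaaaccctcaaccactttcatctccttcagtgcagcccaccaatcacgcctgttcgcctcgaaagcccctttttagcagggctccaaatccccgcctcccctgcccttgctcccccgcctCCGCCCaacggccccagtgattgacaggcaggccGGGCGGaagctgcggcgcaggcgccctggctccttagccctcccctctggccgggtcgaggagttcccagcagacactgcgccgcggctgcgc
SP1: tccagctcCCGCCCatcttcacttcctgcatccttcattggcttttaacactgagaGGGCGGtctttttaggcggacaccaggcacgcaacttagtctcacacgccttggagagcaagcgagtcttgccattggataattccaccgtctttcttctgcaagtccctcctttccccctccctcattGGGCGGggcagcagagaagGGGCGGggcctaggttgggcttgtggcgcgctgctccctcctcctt
SP3: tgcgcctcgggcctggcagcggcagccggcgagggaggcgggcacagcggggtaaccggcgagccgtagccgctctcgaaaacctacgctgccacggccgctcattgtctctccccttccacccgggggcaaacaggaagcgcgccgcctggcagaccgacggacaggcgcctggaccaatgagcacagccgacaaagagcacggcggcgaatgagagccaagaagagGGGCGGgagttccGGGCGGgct

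ZNF281 and SP3 held 2 copies each in these windows and SP1 held 4. The MAZ window was 88.8% G and C, against a median of 58.0% over all windows, and that of VEZF1 84.0%. Both ZNF148 windows were above that median as well, at 68.4% and 66.0%, and held runs of 6 G (1 and 3) without the GGGCGG core. SP2, at 55.2%, was the only one of the genes below the median. Whether copies of the core go with the separation of the groups was not tested. MAZ, with 5 copies, and SP1, with 4 and 8, were the genes besides ZNF148 whose groups did not overlap, and their values lay on opposite sides of control. SP4 also held 4 copies and VEZF1 held 3, and the groups overlapped for both. The windows of ZNF281, SP2 and SP3 held at most 2 each, and their groups overlapped as well. The ZNF148 windows held 0, and ZNF148 was the gene that the hairpin targeted. A match describes the letters only, and binding at these windows was not measured here.

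Of the other zinc finger genes whose products bind GC-rich DNA, a few were lower in shZNF148 and none passed as higher. Of 29 listed, 25 were tested and 5 passed an adjusted p under 0.05 (limma), all of them lower, beside 5.46% of all tested rows higher and 8.13% lower. At an unadjusted p under 0.05, 2 were higher and 9 were lower, beside 33.8% of all tested rows. Groups did not overlap for 7 with shZNF148 higher and 7 with it lower, beside 20% and 21% of all tested rows. Among those higher, KLF4 was at 181% of control (adjusted p = 0.179 from limma) and KLF11 at 140% (adjusted p = 0.125 from limma). KLF4 read 25.9 FPKM in shZNF148 replicate 2, against 11.2 and 10.6 FPKM in replicates 1 and 3. The median log2 fold change of the list was -0.10, and that of all tested rows 0.0061. SP7, SP8 and SP9 were listed at 0 in every sample.

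WT1, a factor with zinc fingers like those of EGR1, was at 26.3, 21.2 and 26.3 FPKM in shCtr and at 13.3, 11.7 and 13.5 FPKM in shZNF148. The groups were far apart, and the log2 fold change was -0.88 (SE 0.11, adjusted p = 0.0111 from limma). KLF6, a factor of the Krüppel-like family, which shares the GC-box zinc fingers of the SP genes, fell from 62.3 ± 2.92 to 46.7 ± 0.754 FPKM (SD, n = 3; adjusted p = 0.0162 from limma). KLF9, of the same family, had a log2 fold change of -0.64 (adjusted p = 0.0407 from limma). EGR1, an immediate early gene, and ZNF219 had log2 fold changes of -0.54 and -0.60 (adjusted p = 0.0447 and 0.0311 from limma). On the scale of FPKM + 1, WT1, KLF9 and ZNF219 were also past 1.5-fold. EGR1, at 63.7% of control in FPKM, was not past it on that scale. The most abundant of the list besides KLF6 were KLF10 and ZBTB4, with means of 40.9 and 30.9 FPKM in shCtr and 42.4 and 31.7 FPKM in shZNF148. Without shCtr replicate 1 or shCtr replicate 3, 0 of the 25 passed, with 1 to 5 in the other fits that left out a sample.

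**Figure D5:**
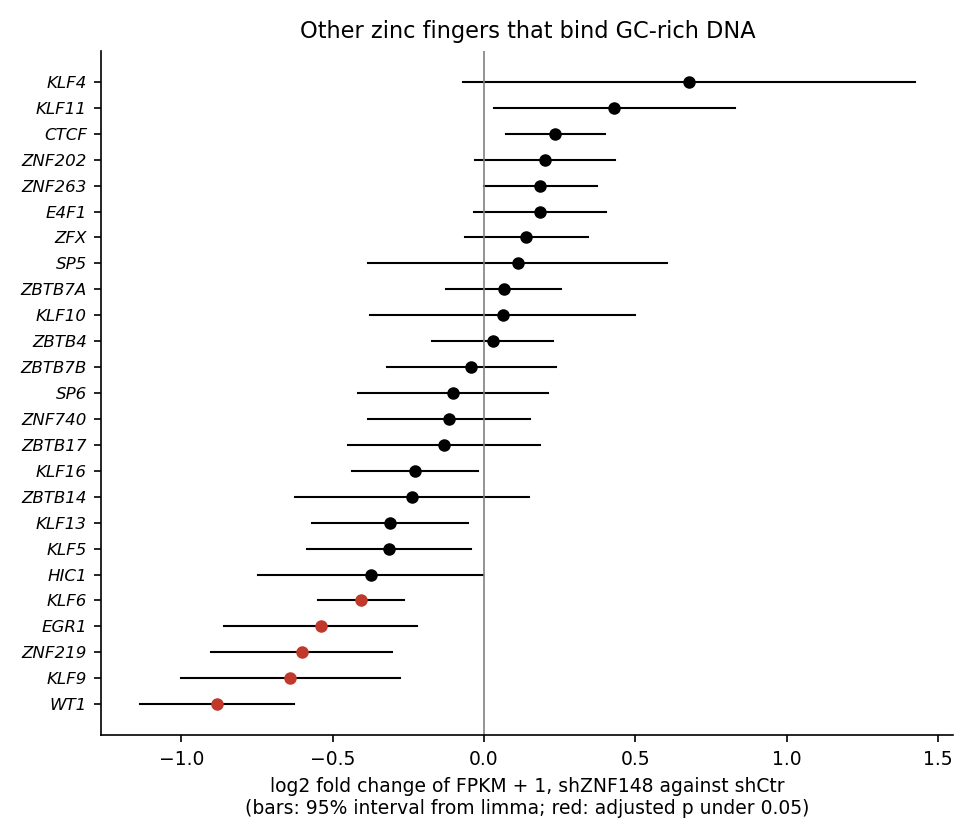
Log2 fold change of FPKM + 1 in shZNF148 against shCtr for the 25 tested genes of the list, sorted by value, with 95% intervals from limma as bars. Red points had an adjusted p under 0.05 and all 5 of them, from WT1 at -0.88 to KLF6 at -0.41, lie below 0.

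GC-box factors act through coactivators and corepressors, such as the acetyltransferases EP300 and CREBBP, the histone deacetylases and the TAF subunits of TFIID. All 27 listed genes were tested, and 1 passed an adjusted p under 0.05 (limma), as lower, where 8.13% of all tested rows passed as lower and 5.46% as higher. The most abundant of the list did not pass: RBBP7, a histone chaperone of deacetylase complexes, was at 86.0% of control (adjusted p = 0.105), TAF7 at 103% and HDAC1 at 104%. At an unadjusted p under 0.05, 8 were higher and 4 were lower, beside 33.8% of all tested rows in either direction, and the median log2 fold change was 0.09. In the fits without a shCtr sample or without shZNF148 replicate 1, 0 of the 27 passed.

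Of 11 genes described as targets of ZNF148, 10 were found and 7 were tested, of which 0 passed an adjusted p under 0.05 in limma. Of all tested rows 13.6% passed, so a count of 0 among 7 says little about the list. At an unadjusted p under 0.05, which 33.8% of all tested rows reached, 2 were higher, among them BAK1, a mediator of apoptosis, and 1 was lower (VIM, the filament protein vimentin). VIM was at 85.5% of control (adjusted p = 0.0563) and BAK1 at 135% (adjusted p = 0.137). CDKN1A, the cell cycle inhibitor p21, was at 98.2, 92.5 and 96.7 FPKM in shCtr and at 79.0, 117 and 80.0 FPKM in shZNF148, with shZNF148 replicate 2 above and the other two below all of shCtr. ITGA5, the integrin alpha 5 subunit, was at 82.7% (adjusted p = 0.175). The median log2 fold change of the 7 was -0.08.

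Genes described as targets of SP1, MAZ and the other factors moved in both directions. Of 18 listed, 17 were tested, and 2 passed an adjusted p under 0.05 as higher and 2 as lower in limma, with 0 past the call that also asks for 1.5-fold. Over all tested rows these shares were 5.46% higher and 8.13% lower. CCND1, which encodes cyclin D1, rose from 115 ± 11.0 to 172 ± 10.4 FPKM (SD, n = 3; adjusted p = 0.0169). TGFBR2, the type II TGF-beta receptor gene, rose from 49.1 ± 1.80 to 66.9 ± 7.03 FPKM (adjusted p = 0.0275). MYC fell from 85.8 ± 6.72 to 68.9 ± 2.93 FPKM (adjusted p = 0.0431). STMN1 and TK1, the most abundant of the list besides CCND1 by the mean over all 6 samples, had means of 525 and 117 FPKM in shCtr and 499 and 127 FPKM in shZNF148 and did not pass. At an unadjusted p under 0.05, 6 were higher and 4 were lower, beside 33.8% of all tested rows, and the median log2 fold change was 0.12. Without shCtr replicate 1 or shCtr replicate 3, 0 of the 17 passed.

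Reference genes were read in the same samples. None of GAPDH, ACTB, TBP, PPIA, HPRT1 and RPLP0 passed in limma. At an unadjusted p under 0.05, 2 were lower, beside 33.8% of all tested rows in either direction. ACTB was at 78.5% of control (adjusted p = 0.0515) and GAPDH at 87.1% (adjusted p = 0.113). Groups did not overlap for these and for RPLP0 (93.3% of control), 3 of the 6 with shZNF148 lower, beside 21% of all tested rows. By value, 5 of the 6 were lower. TBP was at 123% with groups that overlapped.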

How the data were processed

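RNA-seq was analyzed in 6 samples, 3 shCtr and 3 shZNF148, grouped by their labels. The authors deposited 1 table of FPKM values. Their submitters' processing notes name bcl2fastq 2.17.1.14, TopHat2 2.0.14, Cufflinks 2.2.1 and Cuffnorm 2.2.1 with the builds hg18 and hg19, while the methods of the study name Salmon and GRCh38; which of them, and which annotation, lies behind the FPKM is not given in the sources used here. No count test was possible, since read numbers are unknown.

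The 11777 of 24108 rows that averaged 1 FPKM or more were fitted as log2(FPKM + 1) with limma 3.58.1 in R 4.3.3 (trended eBayes, condition as the only term). This scale understates changes of low genes. The Benjamini-Hochberg adjustment covered all tested rows. Single genes were also compared by exact permutation. A symbol with several rows was represented by its most abundant row. Symbols joined in 1 row (CHD4 with NOP2, EP300 with MIR1281) were matched after splitting, and older symbols through RefSeq synonyms. TRAC was not found. Steps were tested on simulated data.

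The genes, lists and tests were chosen with earlier results of these data known. Named are the 9 genes, list genes with an adjusted p under 0.05 or among the 3 most abundant of their list, the 5 rows most like ZNF148, and the reference genes. VIM, BAK1, KLF4, KLF11 and the cell line markers were added after their values were seen. Some list genes under this rule are counted but not reported by name here. Alternatives covered the filter, pseudocount, scaling, replicate block, variance model, sample weights, summed rows and leaving out each sample. The hairpin sequence was listed by the study and matched to GENCODE 44 transcripts on GRCh38 with Python 3.11.15 (numpy 2.4.6, pandas 2.3.3, matplotlib 3.10.9).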

Additional observations from a re-analysis of the deposited data

How the results depend on the processing

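The depth behind each FPKM is unknown, which limits what can be said of SP4 and the second rows. ZNF281, VEZF1, SP1, SP2 and SP3 stayed inside 1.5-fold and did not pass under any of 16 alternatives. ZNF148 kept its direction in every alternative that tested it, from -2.57 with a pseudocount of 0.1 FPKM to -0.69 with 5 FPKM. At a minimum mean of 5 FPKM ZNF148 and PATZ1 were not tested, so 0 of the genes were called lower. MAZ passed with quantile normalization (0.36), sample weights (0.27) and summed rows (0.31). The log2 difference of SP4 was -0.49 with a pseudocount of 0.1 FPKM. The cause of these shifts was not tested.

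The whole table gave 76 higher and 204 lower calls with a pseudocount of 5 FPKM. Of the other GC-rich binding zinc fingers, 2 passed without a filter and 2 at a mean of at least 5 FPKM. Of the described ZNF148 targets, 1 passed at a mean of at least 5 FPKM, 1 with a pseudocount of 0.1 FPKM, 1 with upper quartile scaling and 3 with sample weights. With sample weights, 11 coactivators or corepressors and 7 targets of the other factors passed. Calls over the whole table were also more in that fit, 264 higher and 476 lower, against 216 and 431 as reported above. The share of all tested rows at an adjusted p under 0.05 is not given for these alternatives. The counts therefore cannot be read as particular to the lists.

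Replicate numbers were not shown to pair the samples. The deviations of same-numbered samples correlated at 0.00104, -0.0881 and 0.0304, and 1 of 6 samples correlated best with its own number. In a fit with the replicate block, 99 rows were called higher and 216 lower, and 1 of the other zinc fingers, 0 coactivators or corepressors and 1 target of the other factors passed. In that fit the adjusted p of ZNF148 was 0.0415 and that of MAZ 0.0819.

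With each sample left out in turn, calls ranged from 3 to 209 higher and from 19 to 393 lower, and the genes called lower among the 9 from 0 to 1. The log2 fold change of ZNF148 ranged from -1.74 to -1.45, that of MAZ from 0.22 to 0.36, that of PATZ1 from -0.056 to 0.16 and that of VEZF1 from -0.082 to 0.015. PATZ1 changed sign without shCtr replicate 1 (-0.056), shZNF148 replicate 1 (-0.044) and shZNF148 replicate 2 (-0.028), and VEZF1 without shCtr replicate 3 (0.015). Passing genes ranged from 0 to 5 for the other zinc fingers, from 0 to 3 for coactivators and corepressors, from 0 to 2 for ZNF148 targets and from 0 to 5 for targets of the other factors.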
